A study of Mus musculus with 24 samples.

Results

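The genes described here are the nuclear-encoded subunits of oxidative phosphorylation, the mitochondrial process that makes most of the ATP of a resting muscle fibre. Members were taken by symbol: protein-coding genes named Nduf (with a letter a, b, c, s or v and a number), Sdha to Sdhd, Uqcr, Cyc1, Cox4 to Cox8 and Atp5, with at least 10 counts in 3 or more libraries. Of 54752 gene IDs, 83 met this rule: 37 of complex I, 4 of complex II, 9 of complex III, 16 of complex IV and 17 of complex V. The protein-coding genes Cox7b2 and Cox8c and a second gene ID named Atp5o carried the names but fell below the count, with a highest count of 1. A further 12 genes with such names are not protein coding; 11 of them are processed pseudogenes, retrocopies of member transcripts.

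The data were read counts per gene from gastrocnemius, the large calf muscle, of mice in 24 libraries that form 8 groups of 3. Animals of 4 groups carried HSA-MCM and floxed alleles of both Numb genes, Numb(f/f) and NumbL(f/f), and are called transgene animals. HSA-MCM is MerCreMer, a Cre that tamoxifen switches on, driven by the human skeletal actin promoter of muscle fibres. The other 4 groups, called flox animals, had the same floxed alleles and no Cre, although the titles of the 6 males read WT. Each genotype was given vehicle or tamoxifen in each sex, and neither the animals' age nor the tamoxifen dose is given in the sources used here. The transgene animals on tamoxifen are thus the conditional knockouts, and the flox animals on tamoxifen received the drug with no recombinase.

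Electrons from NADH enter the chain at complex I and those from succinate at complex II, pass through complex III and cytochrome c to complex IV, and meet oxygen there. The proton gradient this builds drives complex V, the ATP synthase. Most subunits are encoded in the nucleus, while 13 are encoded in mitochondrial DNA, and several nuclear subunits of complex IV exist as a muscle form and a form found in most tissues. Slow and oxidative fibres hold more mitochondria than fast glycolytic fibres, so the level of these genes in a whole muscle also reflects which fibres were sampled.

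Libraries held 21516819 to 43014516 counts. They came in 3 tables (transgene females, flox females, and males of both genotypes), so table, sex and, in females, genotype cannot be told apart. The muscle genes Acta1, Ckm and Ttn were high in every library, and the fast myosin gene Myh4 lay at 45603 to 98615 CPM (counts scaled to a library of 1000000). Numb lay between 15.7 and 25.1 CPM and Numbl between 2.67 and 6.50 CPM. In females Numb lay at 22.4 ± 1.48 CPM (SD, n = 3) with vehicle and 18.8 ± 0.24 with tamoxifen in transgene animals, and at 22.8 ± 2.1 and 18.8 ± 1.33 in flox animals, which have no Cre. Whole-gene counts do not separate the floxed part of these transcripts. Esr1, whose hormone-binding domain is part of MerCreMer, lay at 392 to 1982 CPM in transgene libraries and at 22.9 to 42.5 CPM in flox libraries. In 3 transgene male libraries the labels conflict, with vehicle in the title but tamoxifen as the treatment. The title was followed, and all results on transgene vehicle males depend on this choice.

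Together the members took 1.87% to 2.79% of all counts of a library, with a median of 2.28%. They were abundant genes: 67 of the 83 ranked in the top 10% of 13590 protein-coding genes by mean CPM, 62 had a mean of at least 100 CPM, 15 lay between 20 and 100 CPM and 6 below 20 CPM. CPM throughout use library sizes TMM-scaled over the 24 libraries. The catalytic pair of the ATP synthase, Atp5b and Atp5a1, held 23.0% of the members' sum. Within groups of 3 the members varied little, with a median coefficient of variation of 8.56%.

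Levels of different genes were compared per kilobase of exon, because the members are short, with a median of 1569 exonic bases against 4477 in protein-coding genes. The length is the union of all annotated exons of a gene, and the order of genes depends on it. Mean CPM was 2422 for Atp5a1 and 2917 for Atp5b, and 226 for Uqcrq and 186 for Uqcr10, the reverse of their order per kb. In complex V, Atp5a1 and Atp5b led with means of 773 and 689 CPM per kb, followed by Atp5c1, the central stalk subunit, with 283. Atp5s, a coupling factor and not a structural subunit, was lowest with 6.02. In complex IV the highest were the muscle isoform genes Cox6a2 with 799 and Cox8b with 726 CPM per kb, then Cox6b1 with 381. Cox6b2, known from testis, was lowest with 0.253.

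Complex III ran from 318 CPM per kb for the small subunit gene Uqcr10, 310 for the Rieske iron-sulfur protein gene Uqcrfs1 and 229 for Uqcr11 down to 123 for Uqcrq. Complex II, the only one wholly encoded in the nucleus, had 226 CPM per kb for the flavoprotein gene Sdha, 176 for the iron-sulfur subunit gene Sdhb, and 87.9 and 196 for the membrane anchor genes Sdhc and Sdhd. Among complex I names, Ndufa4, which is known today as a complex IV subunit, had 247 CPM per kb, and the accessory subunit gene Ndufb11 had 210. Ndufa4l2, a hypoxia-linked relative of Ndufa4, was lowest with 4.61.

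The muscle isoforms made up nearly all of their families per kilobase. Cox6a2 held 95.6% to 98.6% of the sum with Cox6a1 over the 24 libraries, and Cox8b held 93.6% to 98.6% of the sum with Cox8a. Cox4i1 held at least 99.1% against Cox4i2, a form known from lung and low oxygen. Ndufa4 held 97.3% to 98.6% against Ndufa4l2. The Cox7a family was mixed: the muscle form Cox7a1 had a median share of 63.1%, the form of other tissues Cox7a2 25.5%, and Cox7a2l, known as a supercomplex factor, 11.1%. Without the correction for length the median share of Cox7a1 was 45.7%. In flox males the Cox7a1 share was 63.9% ± 1.21 (SD, n = 3) without and 57.3% ± 1.87 with tamoxifen, and in flox females it was 65.3% ± 1.16 and 65.8% ± 4.68. In transgene males it was 60.8% ± 2.37 and 57.8% ± 3.32, and in transgene females 64.7% ± 2.17 and 63.6% ± 1.15.

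**Figure D1:**
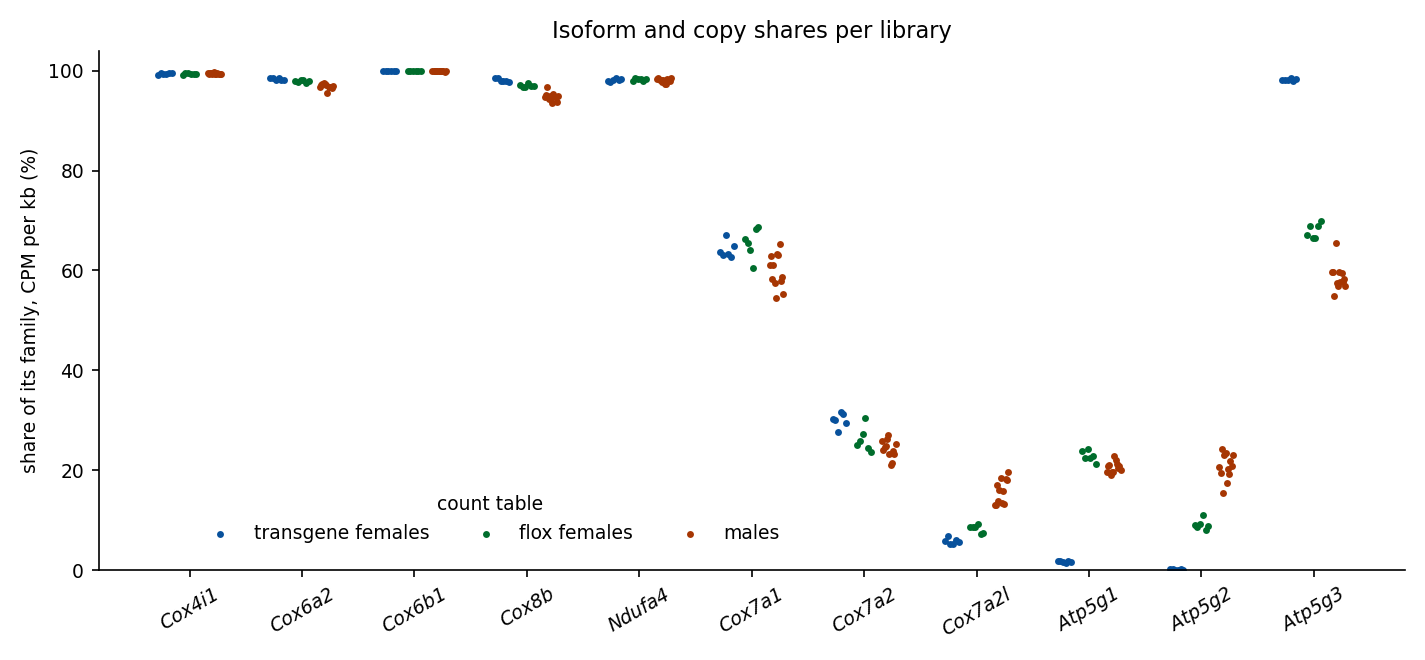
Share of each gene in the per-kilobase sum of its family (vertical axis, percent), 1 point per library, coloured by count table. Cox6a2, Cox8b, Cox4i1 and Ndufa4 stay above 93% in all libraries, while the 3 genes of ATP synthase subunit c (Atp5g1, Atp5g2, Atp5g3) split differently in the transgene female table.

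Among the most stable members over the 24 libraries were Uqcrc1, a core subunit gene of complex III, and Ndufv2, an iron-sulfur subunit gene of complex I, with coefficients of variation of 8.28% and 8.44%. The most variable of at least 10 CPM were Ndufb2 with 88.3%, Atp5l with 75.7% and Atp5g2 with 73.0%, and in these the spread lay between tables. Atp5g2, 1 of 3 genes for the same mature c-ring protein, had a mean of 0.513 CPM in the transgene female table, 45.9 in the flox female table and 118 in the male table. Cox7c, a small subunit gene of complex IV, had 1.99, 131 and 217 CPM in the same order. Atp5g1 had 19.1, 336 and 346 CPM, and Atp5l, which encodes subunit g, had 6.80, 27.3 and 105 CPM. Ndufb2 ran the other way, with 61.4 and 101 CPM in the female tables and 8.96 in the male table.

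The table means differed at least 2-fold in 23 members and at least 10-fold in 5, and in 52 members the ranges of some pair of tables did not overlap. The same counts were not made over all genes, so they do not set the members apart from other genes. The median ratio of the highest to the lowest table was 1.56. Within the male table the vehicle groups, which differ in genotype, had a log2 difference of 0.12 ± 0.10 (SE) in Atp5g2 and of -0.04 ± 0.12 in Cox7c. Some mitochondrially encoded genes differed between tables as well: mt-Co2 lay at 0.0 CPM in the first transgene female vehicle library and 0.381 in the first of flox females, but at 228 in the first of transgene males. The processed pseudogene Atp5l2-ps had a median of 0.0 counts in the transgene female table, 16.0 in the flox female table and 158.5 in the male table. The assignment of reads from such copies is not given in the sources, and its part in these levels was not tested. All responses to tamoxifen below are therefore differences within a table.

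**Figure D2:**
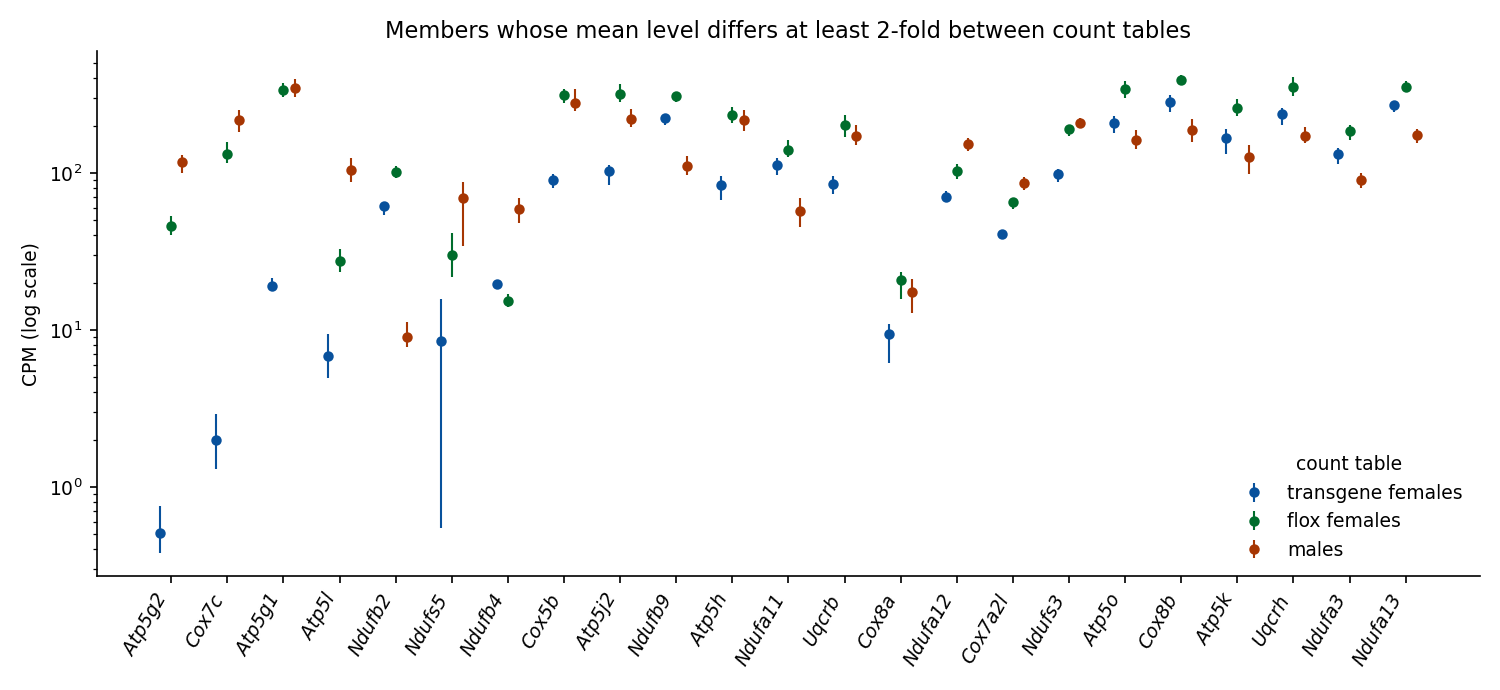
Mean CPM (log axis) of the 23 members whose table means differ at least 2-fold, with vertical lines from the lowest to the highest library of the table. Atp5g2, Cox7c, Atp5g1 and Atp5l are lowest in transgene females, and Ndufb2 is lowest in males.

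In transgene females, the conditional knockout, the members lay slightly higher after tamoxifen, and none passed the threshold of an adjusted p of 0.05 (edgeR quasi-likelihood test, adjusted over all genes). The members summed to 23041 ± 1631 CPM (SD, n = 3) in vehicle animals and 25020 ± 1909 in tamoxifen animals. Of 82 members tested (Cox6b2 was too low), 74 had a log2 difference above 0, against 52.3% of all genes, and the median was 0.12. The count called was 0, with 9 at an unadjusted p under 0.05 (16.8% of all genes), 1 by DESeq2 and 0 by limma-voom, while 1.32% of all genes were called. The groups of 3 did not overlap in 8 members, or 9.76%, against 22.8% of all genes, with 6 of them higher against 9.86% of all genes. The medians were 0.11 in complex I, 0.13 in complex II, 0.12 in complex III, 0.18 in complex IV and 0.14 in complex V.

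The smallest p among higher members was that of Atp5l, at 5.23, 6.17 and 4.91 CPM after vehicle and 8.72, 6.42 and 9.36 after tamoxifen. Every tamoxifen library was above every vehicle library, with a log2 difference of 0.60 ± 0.17 (SE; adjusted p = 0.119), and DESeq2 called it. Among lower members it was that of Atp5s, with -0.37 ± 0.12 (adjusted p = 0.168). Ndufs5, an accessory subunit gene of complex I, lay at 0.55 CPM in the first tamoxifen library, from 23 counts, and at 7.84 to 15.7 CPM in the other 5. The 4 genes of complex II, on 3 libraries each, all had differences between 0.11 and 0.15. All 8 slow fibre markers also had differences above 0, with a median of 0.76 and 0 called. Their summed level was 1184 to 6349 CPM after vehicle and 3651 to 7849 CPM after tamoxifen, and their part in the members' shift was not tested.

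In flox females, which have no recombinase, the members lay slightly higher after tamoxifen too. They summed to 24850 ± 1414 CPM (SD, n = 3) without and 26666 ± 1632 with tamoxifen, with 76 of 83 members above 0 against 50.5% of all genes and a median log2 difference of 0.11. The test called 0 members (7 at an unadjusted p under 0.05, against 8.65% of all genes, 0 by DESeq2 and 0 by limma-voom) and 0.131% of all genes. Groups did not overlap in 13 members, which is 15.7% against 14.2% of all genes; all 13 were higher, against 7.1% of all genes. The smallest p was that of Atp5k, with 0.22 ± 0.08 (adjusted p = 0.497), and among lower members that of Atp5s, with -0.19 ± 0.11 (adjusted p = 0.677). Here 2 of 8 slow fibre markers lay above 0, with a median of -0.11.

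The 2 female responses did not differ detectably. The transgene response minus the flox response had a median of -0.00 over the members, 40 of 83 above 0 against 50.6% of all genes. That count was 23 without the second and 70 without the third transgene vehicle library, and 26 without the first and 62 without the third flox tamoxifen library. The test called 0 members (1 at an unadjusted p under 0.05, against 7.54% of all genes, 0 by DESeq2 and 0 by limma-voom) and 0.0% of all genes. The smallest p was that of Cox7c, with a difference of 0.54 ± 0.23 (adjusted p = 0.622). It had only 47 to 120 counts per library in transgene females, against 4190 to 6317 in flox females.

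In transgene males the members hardly moved on average. They summed to 21682 ± 1727 CPM (SD, n = 3) without and 21952 ± 2334 with tamoxifen, with 49 of 83 above 0 against 51.3% of all genes and a median of 0.03. The direction rested on single libraries: without the first tamoxifen library 22 members were above 0 with a median of -0.06, and without the third vehicle library 27 with a median of -0.04. The test called 0 members (3 at an unadjusted p under 0.05, against 10.1% of all genes, 0 by DESeq2 and 0 by limma-voom) and 0.889% of all genes. Groups did not overlap in 8 members, or 9.64%, against 13.6% of all genes. Atp5k had the smallest p, with 0.34 ± 0.11 (adjusted p = 0.218), and Atp5s the smallest among lower members, with -0.35 ± 0.11 (adjusted p = 0.241). The 3 tamoxifen libraries were not alike: Atp5b lay at 3157 CPM in the first and at 2499 and 2531 in the others, and Myh4 at 45603, 98615 and 84156 CPM.

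In flox males the members lay slightly lower after tamoxifen. They summed to 21653 ± 1381 CPM (SD, n = 3) without and 20765 ± 519 with tamoxifen, with 18 of 83 above 0 against 49.1% of all genes and a median of -0.09. The medians by complex were -0.08, -0.06, -0.10, -0.16 and -0.07 from complex I to complex V. Without the third vehicle library 30 members were above 0, with a median of -0.03. The test called 0 members (7 at an unadjusted p under 0.05, against 17.5% of all genes, 2 by DESeq2 and 0 by limma-voom) and 2.89% of all genes. That share is from edgeR, with 452 genes, and under the alternatives, DESeq2 among them, 143 to 917 genes passed. Groups did not overlap in 15 members, or 18.1%, against 27.9% of all genes, with 14 of them lower against 14.2% of all genes.

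Cox7a1, the muscle isoform gene of a small complex IV subunit, was closest to the threshold in flox males. It lay at 135, 130 and 168 CPM after vehicle and at 105, 103 and 93.1 CPM after tamoxifen, with no overlap. The log2 difference was -0.52 ± 0.14 (SE; adjusted p = 0.0601), and DESeq2, a fit on these 6 libraries alone and a fit with no filter on low counts called it. In transgene males the same gene lay at 131, 153 and 114 CPM and at 124, 102 and 93.5 CPM, where the groups overlapped, with -0.32 ± 0.14 (adjusted p = 0.454). In females its differences were 0.07 ± 0.15 in transgene and 0.12 ± 0.17 in flox animals.

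**Figure D3:**
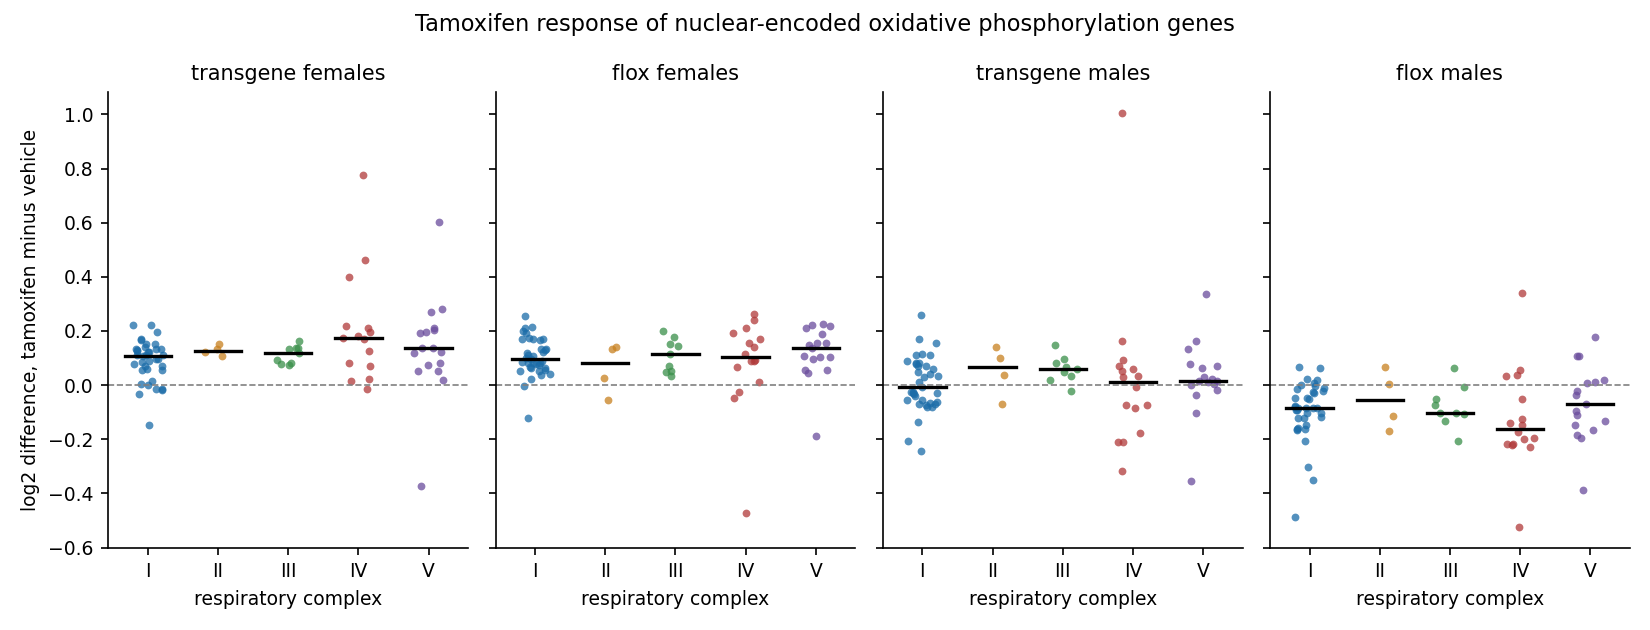
Log2 difference between tamoxifen and vehicle (vertical axis) for each member, by respiratory complex, in the 4 pairs of groups; each point is a gene and the black bar is the median. Points sit mostly above 0 in both female panels and mostly below 0 in flox males, and no point passed the threshold.

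The flox responses of females and males were set against each other in a comparison added after the data were seen. The sexes lie in different count tables, so sex and table cannot be told apart here. The members are not separate observations, since all come from the same 3 libraries per group. The female response minus the male response was above 0 in 78 of 83 members, against 51.1% of all genes, with a median of 0.19. The test called 0 members (12 at an unadjusted p under 0.05, against 10.8% of all genes, 0 by DESeq2 and 0 by limma-voom) and 0.204% of all genes, and the lowest adjusted p was 0.261, for Ndufb4 at 0.33 ± 0.11. In transgene animals the same difference was above 0 in 65 members against 49.0% of all genes, with a median of 0.08. There the test called 0 members (5 at an unadjusted p under 0.05, against 9.5% of all genes, 0 by DESeq2 and 0 by limma-voom) and 0.192% of all genes. The lowest adjusted p was 0.166, for Atp5l at 0.69 ± 0.19. This gene had 163 to 365 counts per library in transgene females and 2075 to 3269 in transgene males.

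Males allow the genotypes to be compared within a table. After vehicle, transgene and flox males had sums of 21682 ± 1727 and 21653 ± 1381 CPM, a median log2 difference of -0.02 and 38 of 83 members above 0 against 47.7% of all genes. That count had no stable direction: it was 20 without the second and 64 without the third flox library, and 18 without the second and 61 without the third transgene library. Of the members 0 were called (4 at an unadjusted p under 0.05, against 17.2% of all genes, 0 by DESeq2 and 0 by limma-voom) and 0.947% of all genes. Groups did not overlap in 8.43% of members against 22.7% of all genes. Ndufb4 had the smallest p among higher members, with 0.19 ± 0.09 (adjusted p = 0.289). Cox6b2 had the smallest among lower ones, with -1.86 ± 0.63 (adjusted p = 0.159), from 1 to 13 counts per library.

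After tamoxifen 71 of 83 members were above 0 in transgene against flox males, against 48.3% of all genes, with a median of 0.10. Without the first transgene library the count was 42 and the median 0.00, so the shift rested on that library. The test called 0 members (7 at an unadjusted p under 0.05, against 20.8% of all genes, 2 by DESeq2 and 0 by limma-voom) and 5.23% of all genes. That share is from edgeR, with 817 genes, and under the alternatives, DESeq2 among them, 280 to 1312 genes passed. Groups did not overlap in 20 members, or 24.1%, against 27.7% of all genes, with 17 of them higher against 13.4% of all genes. Ndufb4, an accessory subunit gene of the membrane arm of complex I, lay at 57.6, 63.6 and 64.8 CPM in transgene and 53.6, 47.8 and 50.6 CPM in flox males, with no overlap and a log2 difference of 0.29 ± 0.09 (SE; adjusted p = 0.0776). It passed without the first transgene tamoxifen library. In the same comparison all 8 slow fibre markers were below 0, with a median of -1.14 and 0 called, and their summed level was 149.6 to 2818 CPM with the transgene and 2675 to 3387 CPM without. Of 8 adipocyte markers 7 were below 0, with a median of -1.06, and 1 was called, Adig (-1.93 ± 0.38, adjusted p = 0.0133); they summed to 118 to 157 CPM and 131 to 305 CPM. All 5 blood markers were below 0, with a median of -0.67 and 0 called, at 293 to 627 CPM and 482 to 759 CPM. The part of these markers in the member differences was not tested.

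The male interaction, the transgene response minus the flox response, had a median of 0.10, with 70 of 83 members above 0 against 51.9% of all genes. With 1 library left out, the median ran from 0.02 to 0.17 and the count from 52 to 78. The test called 0 members (1 at an unadjusted p under 0.05, against 8.25% of all genes, 0 by DESeq2 and 0 by limma-voom) and 0.0128% of all genes. The smallest p was that of Ndufa4l2, with 0.66 ± 0.26 (adjusted p = 0.54). Over both sexes the same difference had a median of 0.05 and 65 of 83 members above 0 against 49.0% of all genes. Without the first transgene male tamoxifen library these were 0.00 and 43. It called 0 members (1 at an unadjusted p under 0.05, against 8.01% of all genes, 0 by DESeq2 and 0 by limma-voom) and 0.012% of all genes. Cox7c was nearest, with 0.37 ± 0.14 (adjusted p = 0.546), and had only 47 to 120 counts per library in transgene females.

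When the 4 tamoxifen responses were averaged over the 24 libraries, 4 members passed the threshold: Atp5s fell, and Atp5k, Atp5o and Cox7c rose. That is 4 of 83 members, against 8.83% of all genes called, 3.95% higher and 4.88% lower. There were 12 members at an unadjusted p under 0.05 (22.3% of all genes), 4 called by DESeq2 and 3 by limma-voom. The median over the members was 0.04, and 60 were above 0 against 50.2% of all genes. This average holds the knockout groups and the groups without recombinase in equal parts. The bases before the start of each of the 4 genes are shown because these are the members that passed. They come from RefSeq (GRCm38.p6), cut so that at most 30 bases lie in an annotated exon, and capitals mark a match to one of 5 motifs named below.
Atp5s (RefSeq name Dmac2l), chr12:69724844-69724944, plus strand: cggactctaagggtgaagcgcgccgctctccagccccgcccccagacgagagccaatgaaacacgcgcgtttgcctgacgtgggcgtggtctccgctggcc
Atp5k, chr5:108434419-108434649, minus strand: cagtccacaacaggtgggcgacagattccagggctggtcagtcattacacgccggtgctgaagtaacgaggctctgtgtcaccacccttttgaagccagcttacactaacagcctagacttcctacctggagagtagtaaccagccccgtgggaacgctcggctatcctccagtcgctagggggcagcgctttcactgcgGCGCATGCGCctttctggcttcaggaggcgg
Atp5o, chr16:91931658-91931880, minus strand: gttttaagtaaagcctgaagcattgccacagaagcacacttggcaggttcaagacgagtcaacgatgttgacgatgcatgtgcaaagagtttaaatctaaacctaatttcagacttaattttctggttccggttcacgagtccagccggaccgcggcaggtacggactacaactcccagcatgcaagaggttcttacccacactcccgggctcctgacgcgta
Cox7c, chr13:86046875-86047045, minus strand: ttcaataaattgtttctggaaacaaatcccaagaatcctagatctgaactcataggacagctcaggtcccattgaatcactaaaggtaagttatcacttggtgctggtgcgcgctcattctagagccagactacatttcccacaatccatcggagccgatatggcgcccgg

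Atp5s (chromosome 12, 69724950 to 69744660, plus strand) encodes a coupling factor of the ATP synthase. In females it lay at 13.5, 12.9 and 13.8 CPM after vehicle and 11.1, 8.50 and 11.1 after tamoxifen with the transgene, and at 11.99, 10.8 and 11.1 against 9.52, 10.8 and 9.32 in flox animals. In males it lay at 14.9, 14.5 and 14.2 against 12.5, 9.91 and 11.6 with the transgene, and at 15.4, 16.3 and 14.9 against 10.5, 13.5 and 11.8 in flox animals. The tamoxifen libraries were below all vehicle libraries of their group in 3 of the 4 pairs, and in flox females the groups overlapped. The mean log2 difference was -0.33 ± 0.06 (SE; adjusted p = 0.000456).

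Atp5k (chromosome 5, 108433244 to 108434448, minus strand) encodes subunit e, a small protein of the membrane part that helps to join ATP synthase dimers. Female libraries had 157, 132 and 164 CPM after vehicle and 189, 175 and 182 after tamoxifen with the transgene, and 229, 245 and 247 against 268, 277 and 295 in flox animals. Male libraries had 119, 126 and 112 against 151, 151 and 149 with the transgene, and 106, 97.9 and 128 against 140, 118 and 119 in flox animals. The tamoxifen libraries were above all vehicle libraries in 3 of the 4 pairs, and in flox males they overlapped. The mean log2 difference was 0.25 ± 0.05 (adjusted p = 0.0017).

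Atp5o (chromosome 16, 91925214 to 91931687, minus strand) encodes the protein OSCP, which ties the catalytic head of the ATP synthase to its outer stalk. Females had 187, 181 and 215 CPM after vehicle and 221, 213 and 231 after tamoxifen with the transgene, and 299, 320 and 337 against 351, 353 and 385 in flox animals. Males had 160, 158 and 158 against 189, 164 and 178 with the transgene, and 152, 141 and 155 against 158, 165 and 162 in flox animals. Groups did not overlap in flox females and in both male pairs. The mean log2 difference was 0.16 ± 0.04 (adjusted p = 0.0111). Exons of this gene overlap those of other genes on both strands, so some of its reads may belong to them.

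Cox7c (chromosome 13, 86044816 to 86046904, minus strand) was the weakest of the 4, with a mean log2 difference of 0.23 ± 0.07 (adjusted p = 0.0456). In transgene females it had 47, 49 and 54 counts after vehicle and 120, 60 and 106 after tamoxifen, which is 1.51, 1.30 and 1.64 against 2.87, 1.73 and 2.91 CPM. In flox females it had 116, 122 and 123 against 122, 146 and 157 CPM. Males had 204, 250 and 198 against 249, 216 and 218 CPM with the transgene and 206, 211 and 248 against 220, 200 and 183 CPM in flox animals, where the order was the other way. The libraries with the fewest counts thus gave the largest difference, 0.78 ± 0.24, against -0.15 ± 0.12 in flox males, and the call was lost in 19 of 30 alternatives, 17 of them with 1 library left out. The adjusted p ran from 0.00571, without the second transgene female tamoxifen library, to 0.103 with limma-voom.

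**Figure D4:**
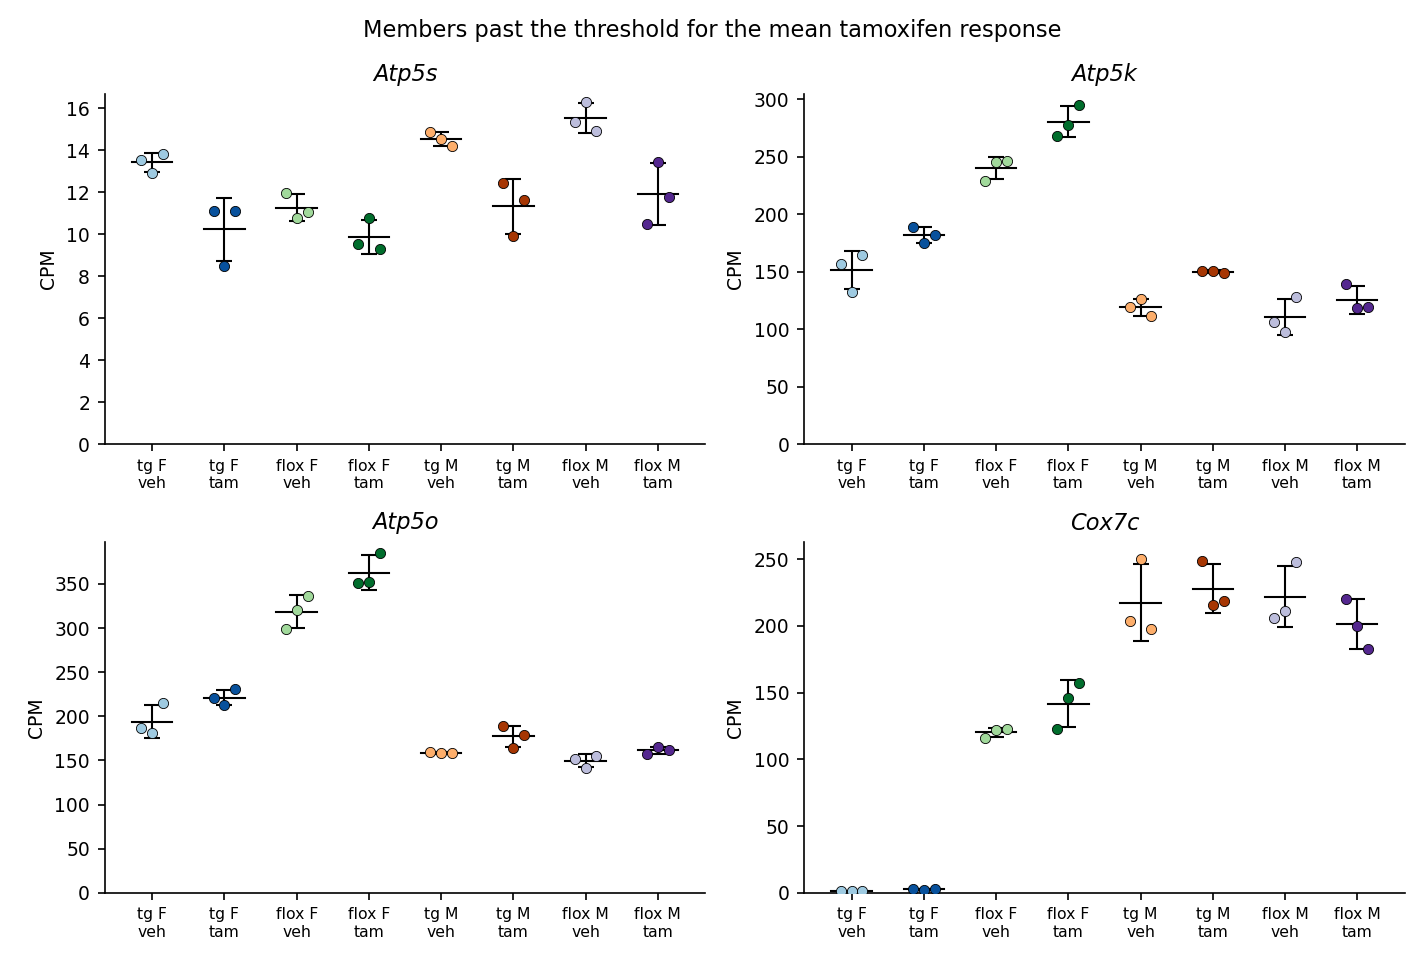
CPM of the 4 members that passed for the mean tamoxifen response, by group (tg, transgene; F, female; M, male; veh, vehicle; tam, tamoxifen); points are libraries, horizontal lines are means and error bars are SD, n = 3. Atp5s is lower and Atp5k and Atp5o are higher on average after tamoxifen in each of the 4 pairs, and Cox7c is near 0 in transgene females.

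A promoter window of 250 bases before and 50 bases after the start was matched for 67 of the 83 members and was compared with those of 27025 genes, on both strands. The NRF-1 motif GCGCATGCGC, bound by a known regulator of respiratory genes, was found in 5 members, 7.46%, and in 1.07% of all genes. The YY1 motif AAGATGGCG was in 7 members, 10.4% against 1.64%, 5 of them in complex I, which held 32 of the 67 members with a window. The ETS motif CCGGAAG, of the kind that NRF-2 binds, was in 16 members, 23.9% against 9.93%. The ERR motif TNAAGGTCA was in 3 members, 4.48% against 1.43%, and the TATA motif TATAAA in 6, 8.96% against 15.7%. Of the 4 stretches printed, that of Atp5k holds an NRF-1 match, whose first base is 50 bases before the start. These are letter matches and not measured sites.

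Other genes of the pathway were described from lists. Tfam, the factor that packs mitochondrial DNA and starts its transcription, rose in the mean tamoxifen response by 0.48 ± 0.05 (adjusted p = 1.95e-06). It also rose in transgene males by 0.58 ± 0.11 (adjusted p = 0.0291), where 0.889% of all genes passed. In flox males it rose by 0.66 ± 0.11 (adjusted p = 0.00683), where 2.89% of all genes passed. In transgene males it lay at 45.9, 46.8 and 44.6 CPM after vehicle and at 72.7, 58.9 and 73.1 after tamoxifen, and in flox males at 47.3, 42.2 and 49.8 against 64.3, 73.9 and 82.7. None of the 6 tamoxifen libraries of these males overlapped the vehicle libraries. Of 17 regulators, 2 rose in the mean response (Tfam and the corepressor gene Nrip1, with 0.81 ± 0.20, adjusted p = 0.0165) and 1 fell (Yy1, with -0.14 ± 0.04, adjusted p = 0.0322). Ppargc1a, the coactivator of mitochondrial biogenesis, did not pass. In the mean response 8.83% of all genes passed. In transgene and in flox females 0 of the 17 regulators passed, Tfam included.

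Of 50 assembly factors tested, 2 rose and 3 fell in the mean response, where 8.83% of all genes passed, so the share in the list was near that of all genes. Tmem70, which assembles the ATP synthase, rose by 0.19 ± 0.04 (adjusted p = 0.00309), and in transgene males by 0.40 ± 0.08 (adjusted p = 0.042), and Foxred1, of complex I assembly, by 0.18 ± 0.05. Cox20, of complex IV assembly, fell by 0.49 on the log2 scale, the complex I assembly gene Ndufaf4 by 0.24 and Taco1, a translational activator of the mitochondrial Cox1 mRNA, by 0.16. Cox20 had 12.1 to 15.3 CPM in female libraries, and its highest male value was 0.828 CPM. Of 5 tested genes listed as further subunits and partners, the ATP synthase subunit gene Usmg5 rose by 0.24 ± 0.06 (adjusted p = 0.0102). The ATPase inhibitor gene Atpif1 rose by 0.20 ± 0.06 (adjusted p = 0.0252). That list also names Atp5mpl, which is a member here, and Higd1a, which is listed among the assembly factors too. Of the 17 genes of carriers and coenzyme Q, Coq10b alone passed in the mean response, with 0.71 ± 0.15 (adjusted p = 0.00456), and in flox females it rose by 1.51 ± 0.16 (adjusted p = 0.0218). The citric acid cycle list had 0 of 18 genes past the threshold in the mean response, with a median of 0.02. Between tamoxifen males, where 5.23% of all genes passed, 1 of its 18 genes did: Pdk4, a kinase that restrains pyruvate dehydrogenase, lay at 160, 127 and 43.4 CPM in transgene and 456, 468 and 463 CPM in flox animals (-2.07 ± 0.50, adjusted p = 0.0486). In the same comparison the coenzyme Q gene Coq4 was lower (-0.69 ± 0.15, adjusted p = 0.0199) and the nuclear receptor gene Ppard higher (0.55 ± 0.14, adjusted p = 0.0411) with the transgene, each as 1 of 17 genes of its list.

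The 13 mitochondrially encoded subunits had 0 genes past the threshold in the mean response, with a median of 0.00. The filter on low counts kept 7 of them in transgene females, 8 in flox females and 13 in males. Their sum lay at 45786 to 73462 CPM in females and 74211 to 104675 CPM in males.

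Markers of other cells of muscle were read for the mean tamoxifen response as well, in which 8.83% of all genes passed. The brown fat gene Ucp1 rose by 4.50 ± 0.79 (adjusted p = 0.00199), from at most 0.947 CPM in any vehicle library, and lay at most at 2.72 CPM in any library. The 5 brown fat markers together lay at 2.94 to 20.1 CPM. The tendon gene Scx rose by 0.50 ± 0.09, while the endothelial gene Kdr fell by 0.48 and the macrophage gene Cd68 by 0.64 on the log2 scale, with 1 gene past the threshold in each of these 4 lists and none in the other 10 marker lists, those of skeletal muscle, slow and fast fibres included. Their part in the member differences was not tested. In a whole muscle, fewer cells of a type and less RNA per cell cannot be told apart.

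Within groups, the members' level tended to follow the myosin genes from library to library, but not in every group. The median member deviated from its mean in the table by -0.166 to 0.173 on the log2 scale. Among transgene male tamoxifen libraries it was 0.17 in the first, which had the lowest Myh4 of all, and -0.05 in the other 2, while the slow myosin gene Myh7 lay at 755, 218 and 10.1 CPM. Among transgene female vehicle libraries it was -0.08, -0.17 and 0.09, with Myh7 at 1077, 328 and 1729 CPM. In some groups the order with Myh4 differed. Flox male vehicle libraries had -0.02, -0.07 and 0.13, with Myh4 at 58809, 63893 and 66585 CPM. Flox female vehicle libraries had -0.14, -0.06 and 0.03, with Myh4 at 83862, 76914 and 88331 CPM. After removing group means, the mean log2 CPM of the 82 members with at least 10 counts in every library had a Pearson correlation over 24 libraries of 0.71 with Myh7 and -0.71 with Myh4, and a Spearman correlation of 0.76 and -0.71. Without the 2 libraries farthest from the median of the myosin gene, Pearson's r was 0.70 and -0.67. By table, in the order transgene females, flox females and males, it was 0.90, 0.82 and 0.72 with Myh7 and -0.83, -0.64 and -0.70 with Myh4. Over all libraries it was 0.68 with the fast oxidative myosin gene Myh2 and 0.61 with Myh1. By table, in the same order, it was 0.76, 0.66 and 0.72 with Myh2 and 0.80, 0.20 and 0.68 with Myh1. These are descriptions, since all genes of a library share its depth and scaling. The most like of 12029 named genes outside the members were, by Pearson's r, Mrpl28 with 0.95, Mdh2 with 0.94, Txn2 with 0.94, Slc25a3 with 0.93 and Etfb with 0.90.

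**Figure D5:**
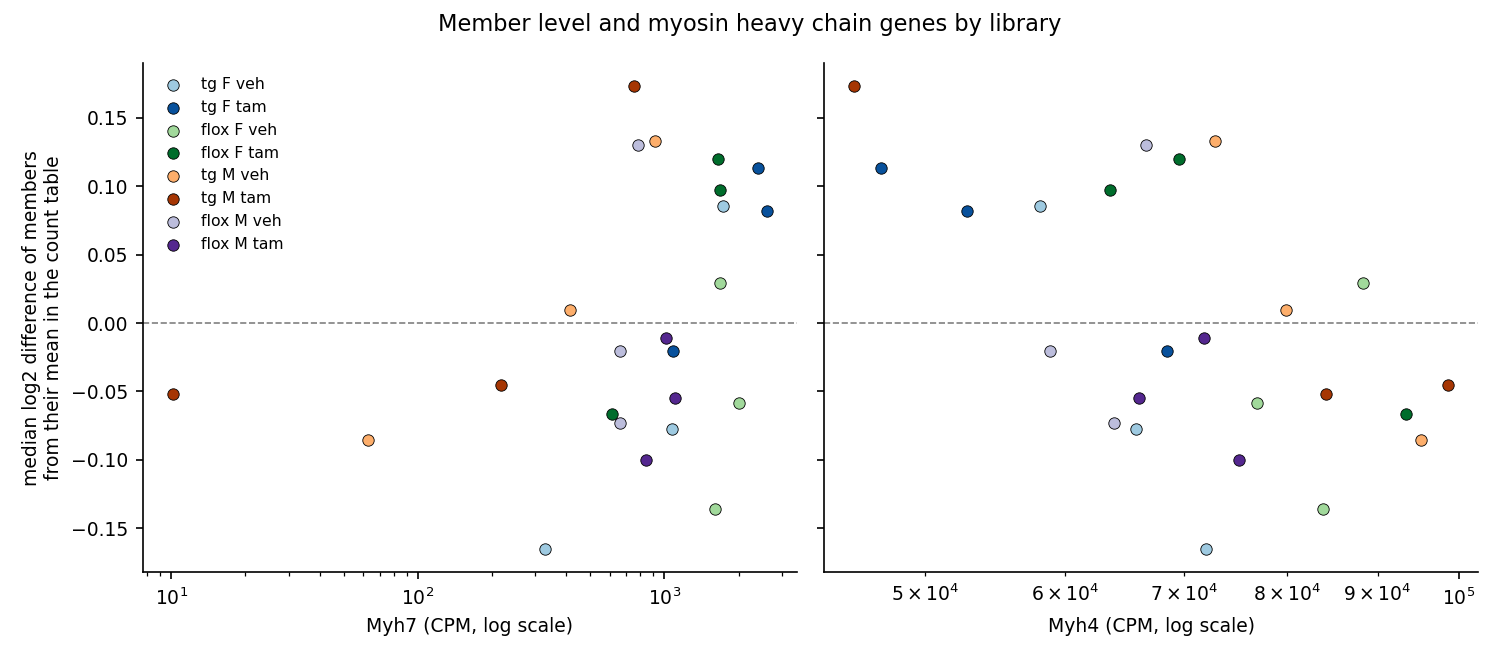
Median log2 difference of the members from their mean in the count table (vertical axis) against Myh7, the slow myosin gene, and Myh4, the fast myosin gene (CPM, log axes); each point is 1 of 24 libraries, coloured by group. The library with the highest member median, 0.17, has the lowest Myh4, 45603 CPM.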

How the data were processed

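RNA of mouse gastrocnemius was sequenced in 24 libraries. Per Ensembl gene ID, 3 deposited tables hold raw read counts. STAR, featureCounts and limma, and the builds GRCm38 and mm10, are named per the submitters' processing notes, without versions or settings. No source used here gives the strand setting or how multi-mapped reads were counted. Symbols, types, places and union exon lengths came from GENCODE M21 (GRCm38), which matched 54723 IDs and not the other 29.

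Models were fitted with edgeR 4.0.16 (R 4.3.3) using TMM, filterByExpr (minimum count 10, minimum total 15), the robust quasi-likelihood F-test and Benjamini-Hochberg adjustment over all genes tested, with a threshold of 0.05. Adjusted p-values come from edgeR where no other tool is given. A standard error is the log2 difference divided by the square root of F. Each female tamoxifen comparison used the 6 libraries of its table, male comparisons 12 libraries, the female interaction 12 and the mean responses all 24. DESeq2 1.42.0, limma-voom (limma 3.58.1), other scalings, no filter and leaving out each library were alternatives. The procedure was run on simulated counts with larger changes than the members' medians, so its power for such small shifts was not tested. The outcome of that run is not reported here. The libraries carry separate labels that do not say whether each is a separate animal, so p-values measure the spread between libraries. No library duplicated another of its group: over 24 replicate pairs, chi-square divided by its degrees of freedom was 9.22 to 117. Libraries of different groups were not compared in this way. In flox females, where the labels number the replicates, libraries of 1 number did not deviate together.

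The members and gene lists were chosen with earlier results of these data known. Members were named where they passed in a comparison, had its smallest p in either direction, were among the 3 highest or the lowest of a complex per kilobase, belonged to an isoform family, or had 1 of the 3 highest or lowest coefficients of variation; 1 member that this rule names is not reported here. Of each list of pathway genes, those past the threshold were named, at most 4 to a list, except that all 5 assembly factors are named.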

Additional observations from a re-analysis of the deposited data

How the results depend on the processing

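The median log2 difference of the members was about as large as the SD of a library's median between replicates, 0.100, or smaller in 11 of 12 comparisons, so a shift of less than that SD, which all 198 alternatives gave, says little of its stability. Leaving out each library turned the sign of the median in transgene males (-0.06 to 0.09), between vehicle males (-0.07 to 0.06) and in the female interaction (-0.05 to 0.08). Between tamoxifen males it ran from 0.00 to 0.13 and for the interaction over both sexes from 0.00 to 0.09. The count of members past the threshold was labelled the same in 190 of 198 alternatives. In 11 of the 12 comparisons the count was 0, and there only a count of 0 was the same. The limit of 1.5 times applied to the mean tamoxifen response alone. In transgene females the count of 0 became 1 with DESeq2 (Atp5l), 2 with no filter on low counts (Atp5l and Cox7c), and 0 to 1 when each library was left out (Cox8a without the third vehicle library). In flox males it became 2 with DESeq2 (Atp5s and Cox7a1), 1 with no filter and 1 in a fit on the 6 libraries compared (Cox7a1 in both). Between tamoxifen males it became 2 with DESeq2 (Ndufb4 and Ndufb7), and 0 to 1 when each library was left out (Ndufb4). The cause was not tested. For the mean tamoxifen response the count of 4 lay between 3 and 5 under the alternatives. Atp5s, Atp5k and Atp5o passed under every alternative run, with adjusted p at most 0.00505, 0.0189 and 0.04, and Cox7c had adjusted p between 0.00571 and 0.103. Without the 3 male libraries of conflicting labels, the same 4 members passed.

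Counts of all genes moved more: with no filter on low counts 941 genes passed in transgene females and 329 in flox females, against 187 and 19, and with DESeq2 679 and 145. The replicate numbers of flox females do not pair the libraries: correlations of the same number were -0.14, 0.03 and -0.10. With the replicate block 0 members and 15 genes passed, against 0 and 19, and the median of the members was 0.11 in both. Cox6b2 and, in transgene females, Atp5g2 rest on few counts, so differences in them were hardly detectable at this depth. Cox7c in transgene females rests on few counts too, and it was called there only with no filter on low counts.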
